A study of Xenopus laevis with 16 samples.

Results

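The homeobox genes msx1, msx2, dlx2, dlx3, dlx5, dlx6 and gbx2 were followed in Xenopus laevis animal caps, the ectoderm explanted from the top of the blastula. Members were all Affymetrix probe sets whose gene symbol in the platform's annotation, without the ending .L or .S, was one of these 7 names. The endings mark the 2 copies of each gene in this genome. The rule gave 12 of 32539 probe sets, for 6 genes and 10 gene copies: msx1.L, msx1.S, msx2.L, dlx2.L, dlx2.S, dlx3.S, dlx5.L, dlx6.L and dlx6.S with 1 probe set each, and dlx3.L with 3, called a, b and c here. Probe sets a and b of dlx3.L carry the Affymetrix suffix for sets that can match several transcripts, so they may also detect dlx3.S. The plain symbol gbx2 named 0 probe sets. RefSeq lists gbx2 as another name of gbx2.1 and gbx2.2, and the probe sets of gbx2.1.S and gbx2.2.L were therefore described beside the members, an addition made after the annotation was read, and they enter no count of members.

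Msx and Dlx proteins are homeodomain transcription factors that mark the ectoderm around the neural plate. The Msx genes are induced by BMP signals and act mostly as repressors at the neural plate border, from which the neural crest and the placodes arise. Dlx3, Dlx5 and Dlx6 are expressed in the non-neural ectoderm beside that border, and Dlx2 is best known from the branchial neural crest and the forebrain. Gbx2 is a homeodomain repressor that sets the posterior side of the boundary between midbrain and hindbrain, and in Xenopus it also acts at the neural plate border downstream of Wnt signals.

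The series asked which genes Pax3 and Zic1, transcription factors of the neural plate border, act on in animal caps. There were 5 groups of 3 biological replicates. Control caps received no injection, no hormone and no drug. Pax3 caps came from embryos given Pax3-GR, a form of Pax3 fused to the hormone-binding part of the glucocorticoid receptor, when they had 2 to 4 cells. Pax3+Zic1 caps came from embryos given Pax3-GR together with Zic1-GR. All injected caps were induced with dexamethasone, which releases the fusion proteins, from stage 10.5 for 2 h. A further group of each kind was also kept in cycloheximide, an inhibitor of translation, at 0.1 mg/ml, beginning 30 min before dexamethasone. All caps were cut at stage 9 and lysed at stage 11.5 to 12. A culture temperature of 15 °C and a treatment temperature of 23 °C are given for every group. No group had injection, dexamethasone or cycloheximide alone, so in every comparison with control caps these parts of the treatment cannot be told apart from the factors. By the labels, only the comparisons of added Zic1 and of the drug at equal factors are matched for the rest of the treatment. The pax3 signal differed between some of these groups, as given below.

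Values are log2 expression per probe set as deposited, and a change is the difference of 2 group means on that scale ± SE, with n = 3 per group. Tests were two-sided in limma over all 32539 probe sets, with Benjamini-Hochberg adjustment within each comparison, and a probe set passed at an adjusted p under 0.05. The replicate numbers paired the samples across groups, so where a fit with the number as a block changed a call, that value is given as blocked. No result rests on the level of one member set against that of another. The 4 comparisons with control caps share the same 3 control samples, so their values stand side by side and are not independent. In bulk tissue, fewer cells of a type and less RNA per cell cannot be told apart. As a check of the injection, 3 of 7 pax3 probe sets had group means of 1.62 to 2.19 in control caps and 5.31 to 6.95 in the injected groups. The other 4, all of pax3.L, lay between -0.91 and 0.39 from control caps. The first 3 were not level among the injected groups. A pax3.S probe set stood at 5.81 in Pax3 caps and 6.95 in Pax3+Zic1 caps, a rise of 1.15 that passed in the blocked fit only (adjusted p = 0.0261). With the drug it stood at 6.24 and 6.69. A pax3.L probe set stood at 5.31 in Pax3 caps and 6.75 with the drug, and at 5.88 and 6.92 with Zic1 added. The part of these differences in the member values was not tested. The 2 zic1.S probe sets differed from each other: means in control, Pax3 and Pax3+Zic1 caps were 7.14, 8.15 and 9.29 for one and 8.21, 9.13 and 8.56 for the other, so only the first was higher with Zic1-GR than with Pax3-GR alone. Which of these probe sets match the injected RNAs is unknown here, so they do not settle the check for Zic1.

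The dlx3 probe sets fell in caps with Pax3, Zic1 and cycloheximide, and 1 of them fell in caps with Pax3 and cycloheximide. Those of dlx2 were also lower, with calls in the blocked fit only, and msx2.L was higher with 1 call in the blocked fit. The probe sets of msx1, dlx5 and dlx6 passed in no comparison in either fit. With cycloheximide, Pax3+Zic1 caps against control caps gave 4 of 12 members lower and 0 higher, where 2.35% of all probe sets passed as lower and 4.56% in either direction. All 4 were probe sets of dlx3, 1 of the 6 genes, so they are not independent. The counts that follow also hold up to 4 probe sets of dlx3. Blocked, 6 were lower and 1 higher, against 9.78% and 9.15% of all probe sets. With cycloheximide, Pax3 caps gave 1 member lower and 0 higher (2.53% of all probe sets in either direction, 1.24% lower), and blocked 5 lower against 6.99%. Without the drug 0 members passed in Pax3+Zic1 caps (0.492% of all probe sets), and blocked 3 were lower against 2.18%. There 4 members had an unadjusted p under 0.05, as did 2268 of all 32539 probe sets. Pax3 caps without the drug gave 0 members (0.286% of all probe sets), and blocked 1 lower against 1.3%. At an unadjusted p under 0.05 there were 3 members and 1352 of all probe sets. The median change over the 12 members was -0.74 in Pax3 caps, -0.79 in Pax3+Zic1 caps, -0.51 in Pax3 caps with cycloheximide and -0.91 in Pax3+Zic1 caps with cycloheximide. Over all probe sets the medians were 0.02, 0.00, -0.03 and -0.03. The member medians span unlike genes, and dlx3 enters them with 4 probe sets. In Pax3+Zic1 caps with cycloheximide the changes ran from -2.52 (dlx3.L c) to 1.23 (msx2.L).

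**Figure D1:**
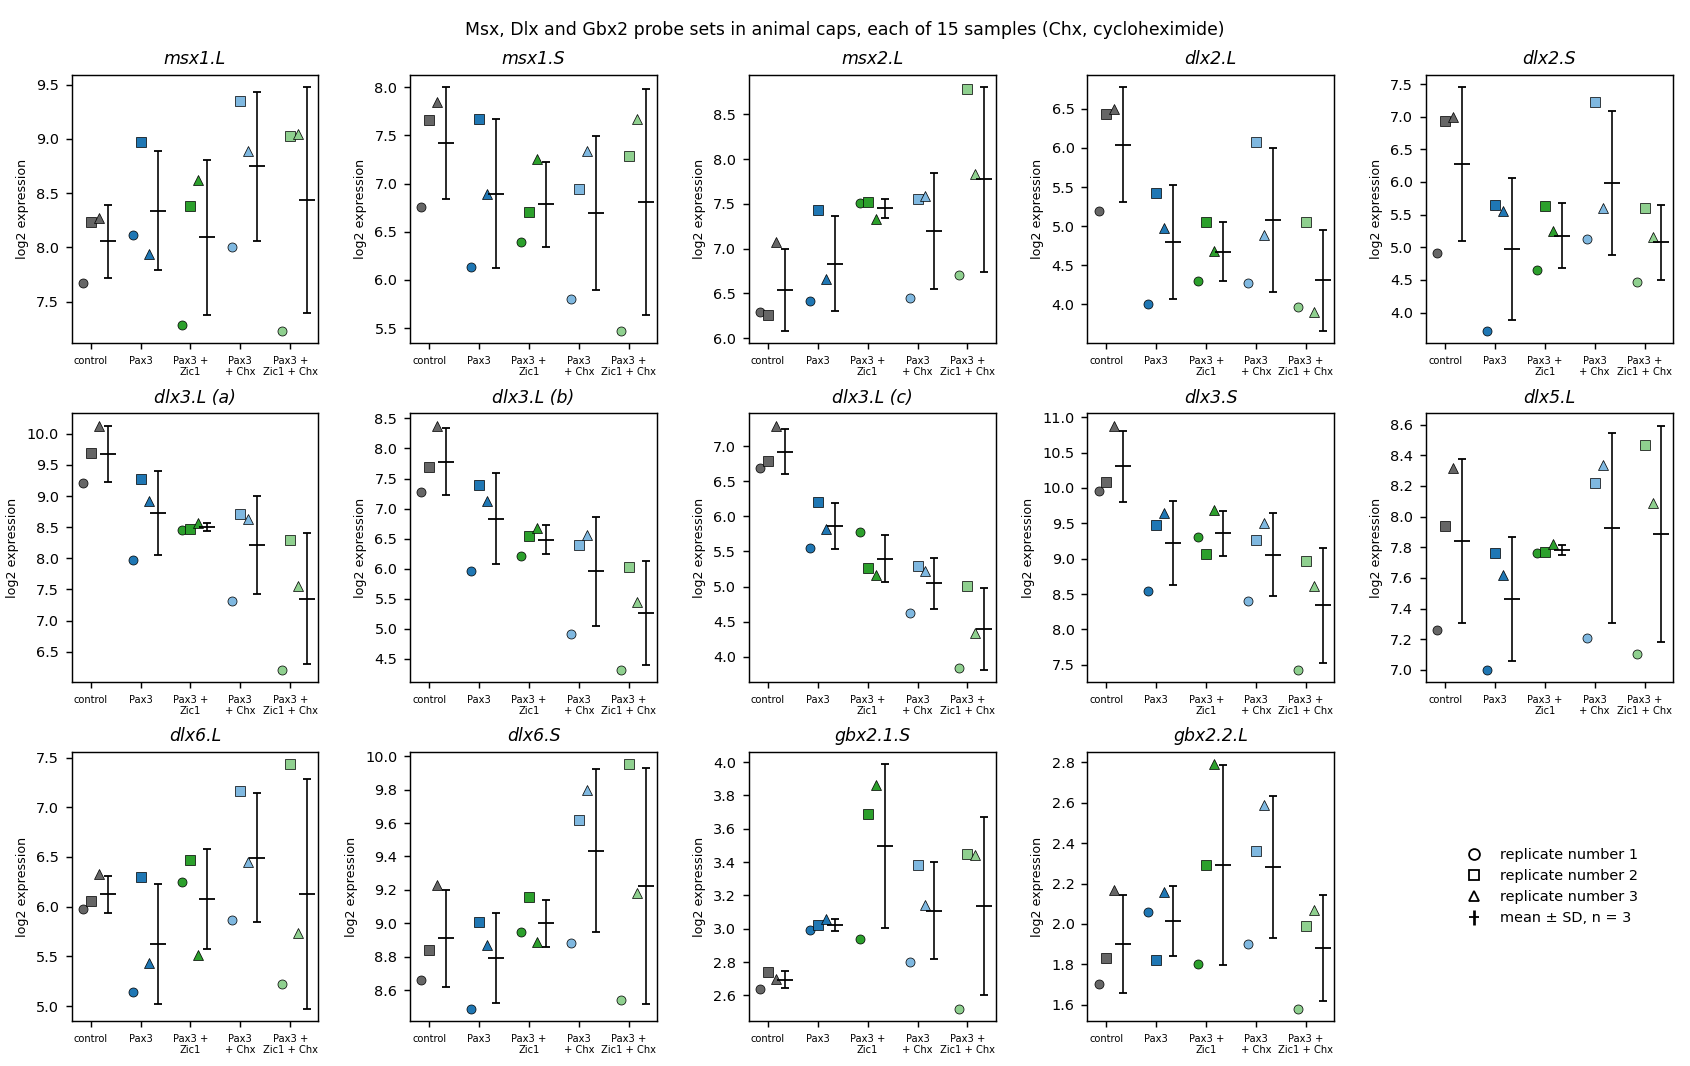
Log2 expression of the 12 member probe sets and of gbx2.1.S and gbx2.2.L in each of the 15 samples (y axes, scaled per panel), with groups along the x axis and the symbol giving the replicate number. Bars are the mean ± SD of 3 replicates. In all 4 dlx3 panels control caps have the highest mean and Pax3+Zic1 caps with cycloheximide the lowest. Replicate number 1 is often the lowest of its group.

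dlx3 encodes a homeodomain factor of the non-neural ectoderm. The probe set of dlx3.S read 9.95, 10.09 and 10.88 in control caps (replicates 1 to 3), 8.55, 9.48 and 9.64 in Pax3 caps, and 9.31, 9.07 and 9.69 in Pax3+Zic1 caps. With cycloheximide it read 8.40, 9.26 and 9.51 in Pax3 caps and 7.43, 8.97 and 8.62 in Pax3+Zic1 caps. Every control sample lay above every injected sample, and the lowest of all was replicate 1 of Pax3+Zic1 caps with cycloheximide. Probe set c of dlx3.L read 6.69, 6.78 and 7.29 in control caps, 5.55, 6.20 and 5.82 in Pax3 caps, and 5.78, 5.26 and 5.16 in Pax3+Zic1 caps. Under cycloheximide the values were 4.63, 5.29 and 5.22 in Pax3 caps and 3.85, 5.01 and 4.34 in Pax3+Zic1 caps. Here too no injected sample reached a control sample.

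Probe set a of dlx3.L read 9.21, 9.70 and 10.12 in control caps, 7.98, 9.28 and 8.92 in Pax3 caps and 8.45, 8.47 and 8.57 in Pax3+Zic1 caps. In the drug groups it read 7.31, 8.72 and 8.63 in Pax3 caps and 6.21, 8.29 and 7.55 in Pax3+Zic1 caps. Pax3 caps without the drug overlapped control caps through replicate 2, and the other 3 injected groups did not overlap them. For probe set b of dlx3.L the control values were 7.27, 7.69 and 8.38, those of Pax3 caps 5.97, 7.39 and 7.13, and those of Pax3+Zic1 caps 6.22, 6.55 and 6.68. With the drug its values were 4.92, 6.39 and 6.56 in Pax3 caps and 4.32, 6.03 and 5.44 in Pax3+Zic1 caps. The overlap with control caps was again confined to Pax3 caps without the drug, among these 4 groups. In all, 2 members (dlx3.L c and dlx3.S) lay wholly below control caps in Pax3 caps, against 4.14% of all probe sets. There were 5 in Pax3+Zic1 caps (the 4 dlx3 probe sets and dlx2.L), against 4.59%. With cycloheximide 4 did in Pax3 caps (the dlx3 probe sets), against 11.2%, and 5 in Pax3+Zic1 caps (these and dlx2.L), against 12.3%.

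In Pax3+Zic1 caps with cycloheximide all 4 dlx3 probe sets fell. Probe set c of dlx3.L fell by 2.52 ± 0.30 (limma adjusted p = 0.000634), 5.73-fold. Probe set b fell by 2.51 ± 0.53 (adjusted p = 0.0175), 5.70-fold, and probe set a by 2.33 ± 0.52 (adjusted p = 0.0232), 5.01-fold. The change of dlx3.S was -1.96 ± 0.44 (adjusted p = 0.0232), 3.90-fold lower. Only the call of probe set c of dlx3.L held under every alternative tried, at adjusted p of at most 0.0269. Without control replicate 3 the changes were -2.10 for a, -2.21 for b and -1.68 for dlx3.S, and the calls were lost (adjusted p = 0.0938, 0.0773 and 0.0991). They were lost as well without control replicate 2 (adjusted p = 0.074, 0.053 and 0.0556) and without replicate 1 of Pax3+Zic1 caps with cycloheximide (adjusted p = 0.0759, 0.0665 and 0.0809). Leaving out replicate 3 of that group lost a and dlx3.S (adjusted p = 0.06 and 0.0516). In the blocked fit all 4 dlx3 calls held in 15 of 15 fits with 1 sample left out.

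In Pax3 caps with cycloheximide probe set c of dlx3.L fell by 1.87 ± 0.30 (adjusted p = 0.00601), 3.66-fold, and this held whichever sample was left out, at adjusted p of at most 0.0348. The other dlx3 probe sets passed in the blocked fit only. Probe set b was at -1.82 ± 0.53 (adjusted p = 0.112, blocked 0.00104), probe set a at -1.46 ± 0.52 (adjusted p = 0.22, blocked 0.00768) and dlx3.S at -1.25 ± 0.44 (adjusted p = 0.213, blocked 0.00811). Each of these blocked calls held in 15 of 15 fits with 1 sample left out.

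Without the drug the dlx3 changes lay nearer to 0 and none passed in limma without the block. In Pax3+Zic1 caps probe set c of dlx3.L was at -1.52 ± 0.30 (adjusted p = 0.0551, blocked 0.00887) and b at -1.30 ± 0.53 (adjusted p = 0.585, blocked 0.0171). Probe set a was at -1.18 (blocked adjusted p = 0.0502) and dlx3.S at -0.95 (blocked adjusted p = 0.069), which did not pass. The blocked call of c was lost without Pax3+Zic1 replicate 2 or control replicate 3, and that of b also without control replicate 1 or Pax3+Zic1 replicate 3, at adjusted p of up to 0.0567 and 0.0972. In Pax3 caps the 4 dlx3 changes lay between -1.08 and -0.95 and passed in neither fit, with blocked adjusted p from 0.0616 to 0.195. By replicate number, each sample set against the control sample of its own number, 48 of 48 dlx3 differences were below 0, from -3.0 to -0.3. These are 4 probe sets of the same gene set against the same 3 control samples, so they are not independent.

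**Figure D2:**
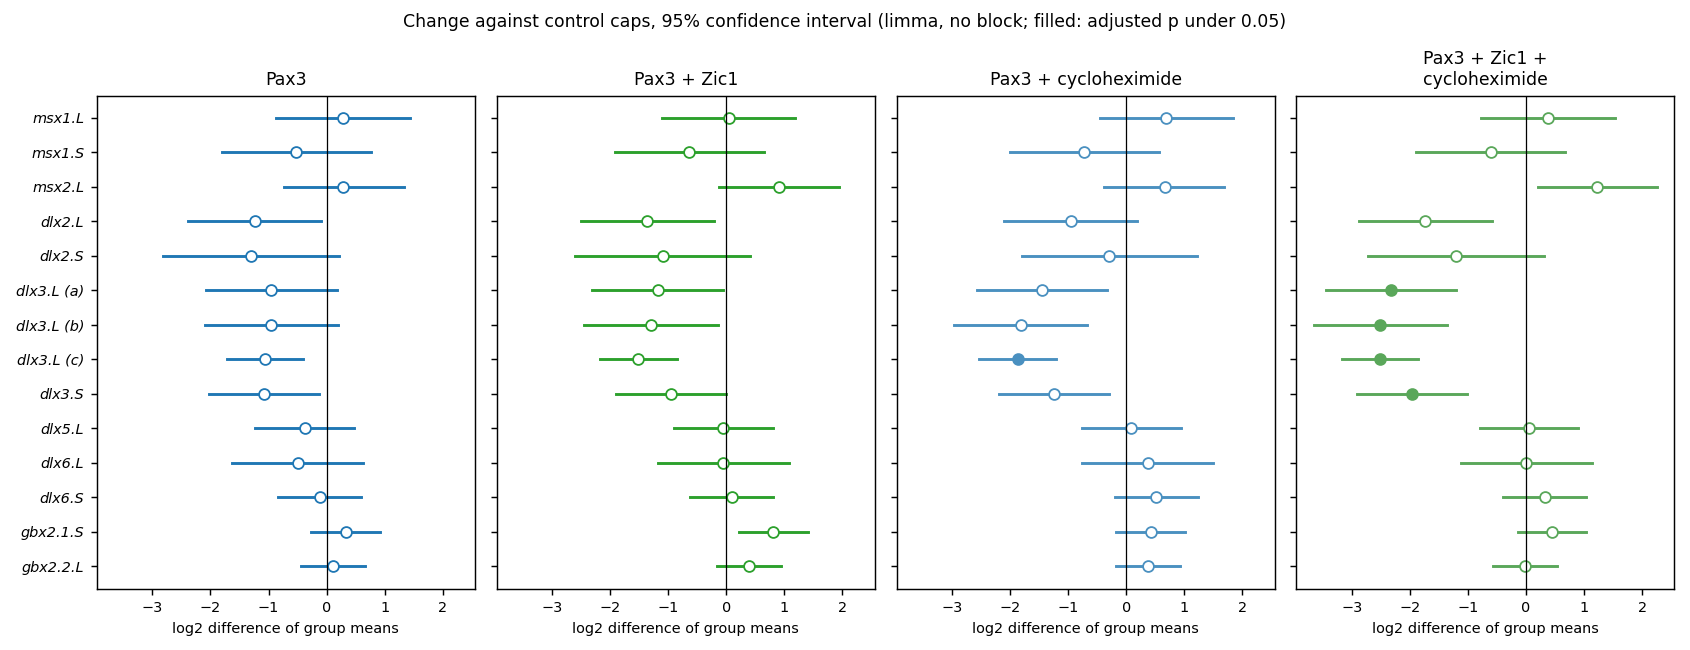
Change against control caps (x axis, log2 difference of group means) for each probe set (y axis) in 4 panels, 1 per injected group, with 95% confidence intervals from limma without the block. Filled points passed at an adjusted p under 0.05: dlx3.L c at -1.87 in Pax3 caps with cycloheximide, and all 4 dlx3 probe sets, from -2.52 to -1.96, in Pax3+Zic1 caps with cycloheximide.

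dlx2 encodes a related Dlx factor. The probe set of dlx2.L read 5.19, 6.44 and 6.50 in control caps, 4.00, 5.42 and 4.98 in Pax3 caps and 4.30, 5.05 and 4.68 in Pax3+Zic1 caps. The cycloheximide groups read 4.27, 6.08 and 4.89 in Pax3 caps and 3.97, 5.05 and 3.90 in Pax3+Zic1 caps. Control replicate 1 was well below the other 2 control samples, and both groups with Zic1 lay wholly below control caps. The changes of dlx2.L were -1.24 ± 0.53 in Pax3 caps, -1.37 ± 0.53 in Pax3+Zic1 caps, -0.96 ± 0.53 in Pax3 caps with cycloheximide and -1.74 ± 0.53 in Pax3+Zic1 caps with cycloheximide. None passed in limma without the block (adjusted p = 1, 0.525, 0.501 and 0.097), and each passed with it (0.0239, 0.0099, 0.024 and 0.00067). With 1 sample left out the blocked call held in 15 of 15 fits for Pax3+Zic1 caps with cycloheximide. It held in 11 of 15 for Pax3 caps, 13 of 15 for Pax3+Zic1 caps and 12 of 15 for Pax3 caps with cycloheximide, where leaving out control replicate 3 lost the call in each. The other losses were without any Pax3 replicate for Pax3 caps (adjusted p of up to 0.152), without Pax3+Zic1 replicate 2 for those caps (up to 0.057), and without replicate 1 or 3 of Pax3 caps with cycloheximide for those (up to 0.113). In the last comparison the change without the block was -0.55 without replicate 1 and -1.46 without replicate 2 of Pax3 caps with cycloheximide.

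The other copy, dlx2.S, read 4.92, 6.93 and 6.99 in control caps, 3.72, 5.65 and 5.56 in Pax3 caps and 4.65, 5.63 and 5.25 in Pax3+Zic1 caps. With cycloheximide it read 5.13, 7.23 and 5.60 in Pax3 caps and 4.47, 5.60 and 5.16 in Pax3+Zic1 caps. Control replicate 1 lay below most injected samples, so every injected group overlapped control caps. Its changes were -1.30 ± 0.70, -1.10 ± 0.70, -0.29 ± 0.70 and -1.21 ± 0.70 in the same order of groups. Only the last passed, in the blocked fit (adjusted p = 0.462, blocked 0.0246), and that call was lost without replicate 2 or 3 of control caps or of Pax3+Zic1 caps with cycloheximide (adjusted p of up to 0.116). It was -1.89 without control replicate 1, unblocked. By replicate number 22 of 24 dlx2 differences were below 0, from -2.6 to 0.3, and the other 2 were dlx2.S in Pax3 caps with cycloheximide. These differences share the same 3 control samples and are not independent.

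**Figure D3:**
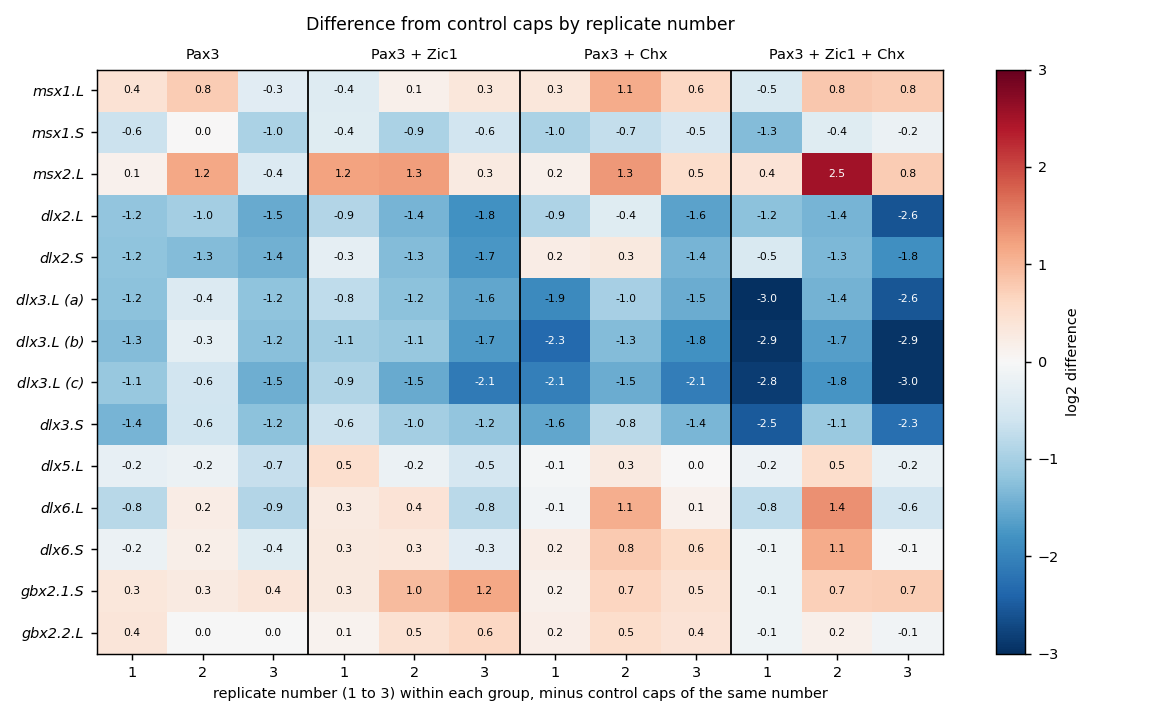
Log2 difference of each injected sample from the control sample of the same replicate number (columns, 3 per injected group) for each probe set (rows), blue below 0 and red above 0. The 4 dlx3 rows are below 0 in all 48 cells, the dlx2 rows in 22 of 24, and the largest rise is that of msx2.L in replicate number 2 of Pax3+Zic1 caps with cycloheximide. All cells share the same 3 control samples, so they are not independent.

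The Msx genes encode homeodomain repressors that answer BMP signals. msx2.L read 6.29, 6.26 and 7.07 in control caps, 6.41, 7.43 and 6.66 in Pax3 caps and 7.51, 7.52 and 7.33 in Pax3+Zic1 caps. Under cycloheximide the values were 6.45, 7.55 and 7.59 in Pax3 caps and 6.71, 8.78 and 7.83 in Pax3+Zic1 caps. The 3 samples of Pax3+Zic1 caps without the drug lay above every control sample, which made 1 of 12 members wholly higher against 4.54% of all probe sets. The other injected groups overlapped control caps. The change of msx2.L was 0.91 ± 0.47 in Pax3+Zic1 caps (adjusted p = 0.83, blocked 0.214) and did not pass in either fit. With cycloheximide it was 1.23 ± 0.47 (adjusted p = 0.208, blocked 0.0337), 2.35-fold, a call of the blocked fit with all samples. Without the block it ran from 0.73 (without replicate 2 of Pax3+Zic1 caps with cycloheximide) to 1.76 (without replicate 1 of that group), and the latter was the 1 of 15 such fits in which it passed (adjusted p = 0.0473). The blocked call held in 11 of 15 fits with 1 sample left out and was lost without control replicate 1 or 2 and without replicate 2 or 3 of Pax3+Zic1 caps with cycloheximide (adjusted p of up to 0.143). In Pax3 caps msx2.L was at 0.29 without and 0.66 with the drug, and neither passed in either fit.

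The copies of msx1 had changes of opposite sign in each of the 4 comparisons, none of which passed, and some of these signs turned under an alternative. msx1.L read 7.67, 8.23 and 8.27 in control caps, 8.11, 8.97 and 7.94 in Pax3 caps and 7.28, 8.38 and 8.62 in Pax3+Zic1 caps. In the drug groups it read 8.0, 9.35 and 8.89 in Pax3 caps and 7.23, 9.03 and 9.05 in Pax3+Zic1 caps. All groups overlapped, and its changes of 0.28, 0.04, 0.69 and 0.38 had SEs of 0.53. msx1.S read 6.76, 7.66 and 7.85 in control caps, 6.13, 7.67 and 6.89 in Pax3 caps and 6.39, 6.70 and 7.26 in Pax3+Zic1 caps. With the drug its values were 5.80, 6.94 and 7.34 in Pax3 caps and 5.47, 7.29 and 7.67 in Pax3+Zic1 caps. Here too all groups overlapped, with changes of -0.53, -0.64, -0.73 and -0.61 and SEs of 0.59. The lowest blocked adjusted p was 0.148 for msx1.L and 0.114 for msx1.S, both in Pax3 caps with cycloheximide. The difference between the copies was not tested.

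dlx5 and dlx6 encode closely related Dlx factors and lie side by side in the genome, as do dlx5.L and dlx6.L in the RefSeq annotation. dlx5.L read 7.26, 7.94 and 8.32 in control caps, 7.0, 7.76 and 7.62 in Pax3 caps and 7.76, 7.77 and 7.82 in Pax3+Zic1 caps. The cycloheximide groups read 7.21, 8.22 and 8.34 in Pax3 caps and 7.1, 8.47 and 8.09 in Pax3+Zic1 caps. No group stood apart, and the group means spanned 0.46 where the median SD within a group was 0.54. Its change in Pax3+Zic1 caps with cycloheximide, where the dlx3 probe sets fell, was 0.05 with a 95% interval of -0.80 to 0.90. The blocked interval was -0.43 to 0.52.

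dlx6.S read 8.66, 8.84 and 9.23 in control caps, 8.49, 9.01 and 8.87 in Pax3 caps and 8.95, 9.16 and 8.89 in Pax3+Zic1 caps. With cycloheximide it read 8.88, 9.62 and 9.80 in Pax3 caps and 8.54, 9.95 and 9.18 in Pax3+Zic1 caps. The highest values were those of replicate 2 or 3 with the drug, and all groups overlapped control caps. dlx6.L read 5.98, 6.06 and 6.33 in control caps, 5.14, 6.30 and 5.43 in Pax3 caps and 6.25, 6.47 and 5.51 in Pax3+Zic1 caps. Under cycloheximide the values were 5.87, 7.16 and 6.45 in Pax3 caps and 5.22, 7.43 and 5.74 in Pax3+Zic1 caps. Replicate 2 was the highest of each injected group. Across dlx5.L, dlx6.L and dlx6.S the changes against control caps lay between -0.50 (dlx6.L in Pax3 caps) and 0.52 (dlx6.S in Pax3 caps with cycloheximide), and none passed in either fit. In Pax3+Zic1 caps with cycloheximide the intervals without the block were -1.12 to 1.13 for dlx6.L and -0.39 to 1.03 for dlx6.S. The blocked intervals were -0.77 to 0.78 and -0.18 to 0.81.

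The gbx2.1.S probe set, outside the count of members, was at low signal: 2.64, 2.74 and 2.70 in control caps, 2.99, 3.02 and 3.06 in Pax3 caps and 2.94, 3.69 and 3.86 in Pax3+Zic1 caps. In the drug groups it read 2.80, 3.38 and 3.14 in Pax3 caps and 2.52, 3.45 and 3.44 in Pax3+Zic1 caps. Its values in the 2 injected groups without the drug and in Pax3 caps with cycloheximide lay above every control value. Of all probe sets 3.82% did so in Pax3 caps, 4.54% in Pax3+Zic1 caps and 8.35% in Pax3 caps with cycloheximide. For gbx2.1.S, replicate 1 of Pax3+Zic1 caps with cycloheximide lay below every control value. The change was 0.81 ± 0.27 in Pax3+Zic1 caps (adjusted p = 0.387, blocked 0.031), 1.75-fold, a call of the blocked fit only. It was lost without replicate 2 or 3 of control caps or of Pax3+Zic1 caps (adjusted p of up to 0.15). In the other groups the change was 0.33, 0.42 and 0.45 and passed in neither fit. gbx2.2.L ranged from 1.58 to 2.79 over the 15 samples, near the lowest value of the table at 0.798, and passed in no comparison of either fit.

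The order of the groups was the same for the 3 dlx3.L probe sets: control caps highest, then Pax3 caps, Pax3+Zic1 caps, Pax3 caps with cycloheximide, and lowest Pax3+Zic1 caps with cycloheximide. For dlx3.S the middle places of Pax3 caps and Pax3+Zic1 caps were exchanged. Neighbours in this order overlapped, apart from control caps against the next group for dlx3.L c and dlx3.S. Control caps were also the highest group for dlx2.L, dlx2.S and msx1.S. They were the lowest for msx1.L, msx2.L and gbx2.1.S, and lay in the middle for dlx5.L and dlx6.L. For these probe sets, gbx2.1.S apart, all neighbouring groups overlapped.

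None of the 12 members passed when Pax3+Zic1 caps were set against Pax3 caps. Without the drug 0 passed in limma (0.0184% of all probe sets) and 0 blocked (1.12%). At an unadjusted p under 0.05 there were 0 members in either fit, against 1589 of all probe sets, and 4718 blocked. With the drug in both groups 0 passed (0.0338% of all probe sets) and 0 blocked (0.744%). At an unadjusted p under 0.05 there were 0 without the block (1020 of all probe sets) and 6 with it (2859 of all probe sets). The 6 were the dlx2 and dlx3 probe sets, all lower. The differences of these 6 by replicate number ran from -1.64 to -0.28. They add no separate support, since the 6 were picked by the blocked test of the same samples. The lowest blocked adjusted p was 0.283. Averaged over both states of the drug 0 passed (0.504% of all probe sets) and 0 blocked (3.99%). At an unadjusted p under 0.05 there was 1, dlx3.L c (2295 of all probe sets). Blocked there were 5 (5871 of all probe sets), msx2.L higher, and dlx2.L and the 3 dlx3.L probe sets lower. The added Zic1 went with 0.62 and 0.58 higher msx2.L without and with the drug, a mean of 0.60. The 95% interval of that mean was -0.13 to 1.33 without the block and 0.04 to 1.15 blocked (blocked adjusted p = 0.246). For the dlx3 probe sets it went with changes between -0.45 and 0.13 without the drug and between -0.87 and -0.65 with it. dlx3.L c averaged -0.55 over both states (adjusted p = 0.553, blocked 0.152). Its interval was -1.02 to -0.08 without the block and -0.97 to -0.13 blocked. The difference between the 2 states gave 0 members and 0 of all probe sets (0%) in limma and in the blocked fit, with 0 members and 193 of all probe sets at an unadjusted p under 0.05, and 2 members (dlx2.S and dlx3.S) and 778 of all probe sets blocked. For dlx3.S that difference was -0.85, with an interval of -2.19 to 0.50 without the block and -1.65 to -0.04 blocked.

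Cycloheximide went with lower dlx3 in caps with both factors, by calls of the blocked fit. Against Pax3+Zic1 caps without it, the 4 dlx3 probe sets were the members wholly below (9.41% of all probe sets were). Their changes were -1.15 ± 0.52 for dlx3.L a (adjusted p = 0.352, blocked 0.0252), -1.22 ± 0.53 for b (adjusted p = 0.328, blocked 0.011), -1.0 ± 0.30 for c (adjusted p = 0.144, blocked 0.0275) and -1.02 ± 0.44 for dlx3.S (adjusted p = 0.323, blocked 0.0228). In limma without the block 0 members passed (1.59% of all probe sets), and 4 had an unadjusted p under 0.05 (4507 of all probe sets). Blocked, these 4 passed as lower (8.45%). All 4 blocked calls were lost without replicate 3 of Pax3+Zic1 caps with cycloheximide, and those of a, c and dlx3.S also without replicate 1 of either group, at adjusted p of up to 0.109. In limma without the block, leaving out replicate 1 of Pax3+Zic1 caps with cycloheximide moved the changes to -0.58 for a, -0.75 for b and -0.56 for dlx3.S. Blocked, leaving out replicate 1 of Pax3+Zic1 caps moved a to -0.76 and c to -0.63. In Pax3 caps the drug gave 0 members in limma (0.87% of all probe sets) and 0 blocked (10.5%). At an unadjusted p under 0.05 there was 1, dlx3.L c, lower (3400 of all probe sets). Blocked there were 5 (8516 of all probe sets), 2 lower (dlx3.L b and c) and 3 higher (dlx2.S, dlx6.L and dlx6.S). The largest of these was dlx2.S at 1.01 (blocked adjusted p = 0.0719). There dlx3.L b stood at -0.88 (blocked adjusted p = 0.0561), dlx3.L c at -0.81 (blocked 0.0784) and dlx3.S at -0.17 (blocked 0.743). The probe sets of dlx5 and dlx6 lay between 0.46 and 0.87 there and between 0.05 and 0.22 in Pax3+Zic1 caps, and none passed. For msx2.L the drug's change was 0.36 in Pax3 caps and 0.32 in Pax3+Zic1 caps.

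**Figure D4:**
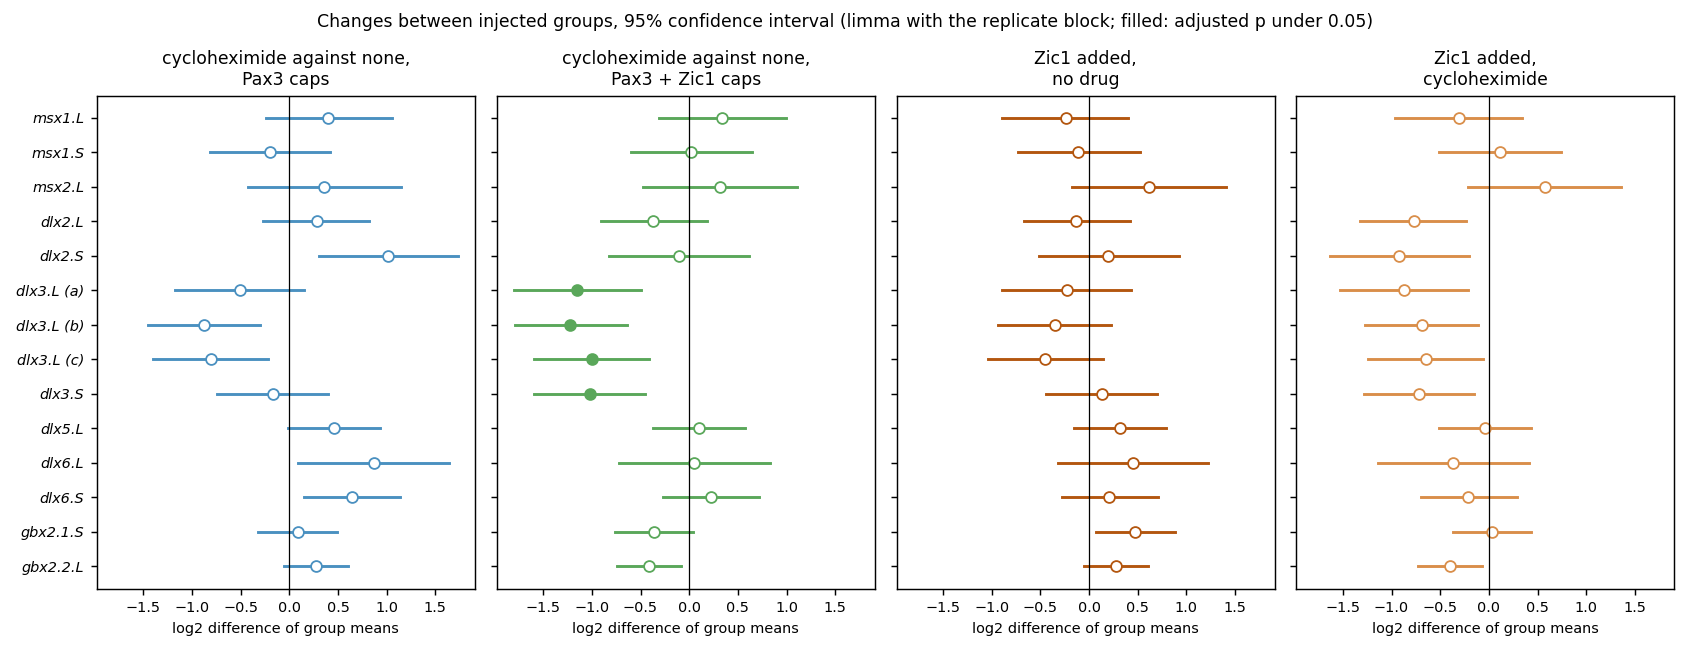
Changes between injected groups (x axis, log2 difference of group means) for each probe set (y axis), with 95% confidence intervals from limma with the replicate block: cycloheximide against none in 2 panels and added Zic1 in 2 panels. Filled points passed at a blocked adjusted p under 0.05 and are the 4 dlx3 probe sets for cycloheximide in Pax3+Zic1 caps, from -1.22 to -1.0.

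The members varied together between samples of one group. Replicate number 1 was the lowest of its group in 52 of 60 combinations of member and group, against 36.5% of such combinations over all probe sets. With group means removed, the Pearson correlation between members lay between 0.51 and 0.97 for all 66 pairs, with a median of 0.78. With group means kept it lay between -0.31 and 0.98, with a median of 0.55. The 6 pairs among dlx3 probe sets correlated at 0.89 to 0.98 over the 15 samples, and dlx2.L with dlx2.S at 0.90. The 3 pairs among dlx5.L, dlx6.L and dlx6.S lay between 0.75 and 0.88. Between dlx3 and these 3 the correlation was -0.08 to 0.49 with group means kept and 0.58 to 0.97 with them removed. These correlations are descriptions over 15 samples that share groups and replicate numbers. No value over pairs of all probe sets is set beside them, so they are not shown to be particular to the members.

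Among probe sets with 1 gene symbol, those most like each gene over the 15 samples were named by Pearson correlation with its brightest probe set. For dlx3.S these were XB5932119.L in 2 probe sets (0.95 and 0.94) and efnb3.L (0.95). For dlx2.S they were mbd1.L (0.91), myl4.S (0.90) and slc35a2.S (0.90), and for dlx5.L gata3.S (0.90), tead4.S (0.88) and amotl1.L (0.88). dlx6.S was most like dlx5.L (0.88), capn10l.L (0.85) and ptp4a1.S (0.85). msx1.L was most like rpp21.S (0.90), kansl2.S (0.87) and rp9.L (0.85), and msx2.L like mmp11.L (0.91), gdf6.S (0.89) and enc1.L (0.89). For gbx2.1.S they were tpm2.S (0.90), nr2f1.S (0.90) and nr2f1.L (0.89).

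BMP signals regulate msx and dlx genes in the ectoderm, so genes of that pathway were set beside them. Of 28 BMP ligands, antagonists and targets 0 passed in Pax3 caps (3 higher and 12 lower at an unadjusted p under 0.05, 3 and 4 blocked). In Pax3+Zic1 caps 2 rose and 0 fell (3 and 7 blocked), namely the secreted antagonists nog.L by 3.31 ± 0.55 (adjusted p = 0.021) and chrd.1.S by 2.78 ± 0.45 (adjusted p = 0.0189). With cycloheximide 3 rose and 0 fell in Pax3 caps (7 and 3 blocked): nog.L by 3.68, chrd.1.S by 1.96 and the BMP target id4.S by 1.63. In Pax3+Zic1 caps with cycloheximide chrd.1.S rose by 3.75 and nog.L by 3.33, while szl.S, a secreted inhibitor of chordin-cleaving proteases, fell by 2.05 and bmper.L, a chordin-like BMP regulator, by 1.19 (7 higher and 6 lower blocked). The list's median change was -0.75, -0.74, 0.11 and 0.05 in these 4 comparisons, against 0.02, 0.00, -0.03 and -0.03 over all probe sets. Of all probe sets 0.221%, 0.289%, 1.28% and 2.21% passed there in limma as higher, and 0.0645%, 0.203%, 1.24% and 2.35% as lower. The drug raised the ligand gene bmp4.S by 1.55 ± 0.28 in Pax3 caps (adjusted p = 0.0221). In Pax3+Zic1 caps bmp4.S was 1.19 higher with the drug, a call of the blocked fit only (limma adjusted p = 0.0572, blocked 0.00747). Its other copy, bmp4.L, was 1.29 higher in Pax3 caps and 1.0 higher in Pax3+Zic1 caps. Both were calls of the blocked fit only (limma adjusted p = 0.08 and 0.141, blocked 0.00787 and 0.0176).

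Among other regulators of the non-neural ectoderm 1 gene passed in limma. Of 13 measured, foxi1.L, a forkhead gene of ionocyte precursors, fell by 1.07 ± 0.21 in Pax3+Zic1 caps (adjusted p = 0.0478). With cycloheximide it rose by 1.93 ± 0.21 where Pax3 was given alone (adjusted p = 0.000638). The rise with both factors and the drug was 1.86 ± 0.21 (adjusted p = 0.000434). No other gene of that list passed against control caps in limma. The shares of all probe sets that passed are those given with the BMP list. In Pax3+Zic1 caps 7 of 13 were lower and 0 higher at an unadjusted p under 0.05, with a median change of -0.80 against 0.00 over all probe sets, and in Pax3 caps 0 of 13 passed (2 lower at an unadjusted p under 0.05, 0 blocked). Blocked, 3 were lower in Pax3+Zic1 caps, and with cycloheximide 1 was higher and 3 were lower. Of 7 preplacodal genes sox11.S rose with cycloheximide, by 2.28 in Pax3 caps and 2.1 in Pax3+Zic1 caps, and 0 passed in limma without it (1 higher blocked, and 1 higher and 2 lower at an unadjusted p under 0.05, in each). Of 13 other relatives and partners of Dlx and Msx, lhx2.L, a LIM homeobox gene, rose by 1.1 ± 0.21 in Pax3 caps with cycloheximide (adjusted p = 0.0152), and 0 passed in the other 3 comparisons, where 2 or 3 were higher at an unadjusted p under 0.05 and 1 to 3 were higher blocked.

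Among neural plate border genes those that passed in limma without the block rose. Of 23 measured, 3 rose in Pax3 caps, 2 in Pax3+Zic1 caps, 5 in Pax3 caps with cycloheximide and 7 in Pax3+Zic1 caps with cycloheximide. pax3.S, of an injected gene, counted among them each time. zic1.S, of a gene also injected in Pax3+Zic1 caps, counted in both drug groups. That count rests on the brighter zic1.S probe set, and the 2 zic1.S probe sets differed, as given above. Blocked, 2 of the 23 were lower in Pax3 caps and 1 in Pax3+Zic1 caps. In Pax3 caps 5 were higher and 6 lower at an unadjusted p under 0.05, and the median change was -0.13. zic2.S, a zinc finger gene of the border and neural plate, rose by 1.04, 0.92, 1.15 and 1.05 in the 4 comparisons. tfap2b.L, which encodes an AP-2 factor, rose by 3.59 in Pax3 caps. With cycloheximide its rise was 4.24 there and 3.12 with Zic1 added. Of 24 partners of gbx2 in patterning along the axis 1, 3, 6 and 5 rose and 0 fell in limma. Over all probe sets 0.221%, 0.289%, 1.28% and 2.21% passed as higher. Among those that rose was irx3.L, by 3.84 to 4.61. In the 3 comparisons other than Pax3 caps without the drug otx1.L rose by 1.82 to 3.25. Blocked, 5, 5, 11 and 11 of the 24 were higher and 1, 2, 0 and 1 lower. At an unadjusted p under 0.05, 8, 6, 10 and 7 were higher and 2, 3, 0 and 1 lower. No direct comparison of these lists with the msx and dlx genes was tested.

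Markers of cell types moved in the same comparisons in which dlx3 fell. The summed linear level of 18 epidermal and non-neural ectoderm markers ran from 16700 to 21400 in control caps, 12200 to 17000 in Pax3 caps and 14000 to 16300 in Pax3+Zic1 caps. With cycloheximide it ran from 10600 to 15700 in Pax3 caps and 8280 to 14700 in Pax3+Zic1 caps. In limma 0, 1, 2 and 6 of the 18 fell against control caps in Pax3 caps, Pax3+Zic1 caps, and these with cycloheximide. In each 0 rose, and of all probe sets 0.0645%, 0.203%, 1.24% and 2.35% passed as lower. Blocked, 1, 3, 7 and 8 were lower, against 1.3%, 2.18%, 6.99% and 9.78% of all probe sets. In Pax3 caps 4 of the 18 were lower at an unadjusted p under 0.05. Group means of keratin krt70.L went from 10.26 in control caps to 6.05 in Pax3+Zic1 caps with cycloheximide, and those of the secreted lectin itln1.L from 7.95 to 3.24. In the same groups epcam.S was at 11.43 and 11.49, grhl3.S at 10.22 and 10.33, and tfap2a.L at 10.17 and 10.15. The markers tp63.L, krt61.L, krt62.L and krt62.S were at 1.64 to 1.88 in control caps, low on this array.

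Markers of other tissues moved too. The sum over 5 cement gland markers ran from 1240 to 1580 in control caps. It ran from 554 to 721 in Pax3 caps and 290 to 540 in Pax3+Zic1 caps. With cycloheximide it ran from 148 to 202 and from 80.5 to 84.2. In these 4 groups 0, 1, 3 and 3 fell in limma (2, 3, 3 and 4 blocked), and 0 rose. That over 14 endoderm markers was 201 to 393 in control caps, 411 to 945 in Pax3 caps and 320 to 748 in Pax3+Zic1 caps. With cycloheximide it was 1230 to 1990 in Pax3 caps and 597 to 1470 in Pax3+Zic1 caps. In these 4 injected groups 1, 2, 5 and 8 rose (5, 4, 7 and 9 blocked). In limma 0 fell, and blocked 1 fell in Pax3 caps. Of all probe sets 0.221%, 0.289%, 1.28% and 2.21% passed as higher, and blocked 0.839%, 2.17%, 7.87% and 9.15%. In Pax3+Zic1 caps with cycloheximide 3 of 15 mesoderm markers rose (620 to 2560, against 268 to 787 in control caps), and blocked 5. In Pax3 caps, Pax3+Zic1 caps and Pax3 caps with cycloheximide 0, 0 and 1 rose (0, 2 and 2 blocked). Of 11 neural plate markers 2 rose and 1 fell in Pax3+Zic1 caps with cycloheximide (3690 to 5040, against 1880 to 2050), and blocked 6 and 2. Group means of sox3.S went from 8.96 in control caps to 10.63 there, and those of gmnn.S from 9.16 to 9.97. Those of tubb2b.S went from 5.69 to 4.39 and of ncam1.S from 3.15 to 2.39. In Pax3 caps with cycloheximide 2 rose and 0 fell (5 and 2 blocked). Without the drug 0 passed in limma, and blocked 1 rose in Pax3 caps and 1 fell in Pax3+Zic1 caps. Of 5 germ plasm markers 0 passed in each of the 4 comparisons in either fit, with at most 1 at an unadjusted p under 0.05 in either. The part of these markers in the dlx3 and dlx2 values was not tested.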

How the data were processed

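Affymetrix Xenopus laevis arrays were measured, and the authors deposited 1 value per probe set on a log2 scale. The log base was read from the values (0.798 to 13.3, array means 4.96 to 4.99). R 2.14.2 is named in the submitters' processing notes. Steps of background correction, normalization and summary, not given in the sources used here, were neither repeated nor changed. The 96 control probe sets among 32635 were removed, with no filter on level. In the platform's annotation 15495 of the rest have 1 symbol, 279 several and 16765 none. RefSeq (Xenopus_laevis_v10.1, used for names and neighbours) held 15384 of the symbols and changed that of 0 members. The members and lists were chosen with earlier results of these data known.

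There were 16 arrays of 15 samples. Arrays 2.1 and 2.2 of Pax3+Zic1 caps share a biological replicate number, so their mean was used (SD of their difference 0.183, against 0.517 to 0.759 between replicates of a group). The labels call the replicates biological. The number of arrays limits the precision, and no read depth applies. All 5 groups were fitted in one limma 3.58.1 model (R 4.3.3, data.table, version 1.17.8; lmFit and eBayes, residual degrees of freedom 10, prior 2.17) with 10 comparisons, two-sided and Benjamini-Hochberg adjusted. The fits were tested on simulated data.

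With group means removed, samples of one replicate number correlated at 0.43 to 0.86 across probe sets. Those of other numbers correlated at most at -0.1, and 15 of 15 samples correlated best with their own number. Values with group means removed sum to 0 within each group. Correlations above 0 within a number therefore bring those between numbers below 0 on average. The latter add no separate support for the pairing. The meaning of the number is not stated in these sources. The number was therefore also fitted as a block (residual degrees of freedom 8, prior 3.4). Other alternatives were array centring, quantile normalization, leaving out the dimmest 25% of probe sets, array weights, a trended robust prior, either repeat array alone, a fit of only the compared groups, and each sample left out.

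Every member was described. Likeness was the Pearson correlation over 15 samples with the brightest probe set of each gene, naming the top 3. The 6 companion lists and the marker lists took 1 probe set per gene copy, the brightest, and genes that passed could be named, at most 5 per comparison by size. Marker sums add 2 to the power of the log2 values. Figures were drawn with matplotlib 3.10.9 and pandas 2.3.3 in Python 3.11.15.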

Additional observations from a re-analysis of the deposited data

Results flagged for a closer look

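The change of dlx2.S with cycloheximide was flagged because its sign differed between the 2 kinds of injected caps. In Pax3+Zic1 caps and in replicate 3 of Pax3 caps it was small beside its blocked SE of 0.33. Set against the sample of the same replicate number without the drug, it was 1.41, 1.59 and 0.04 in Pax3 caps (mean 1.01) and -0.19, -0.04 and -0.09 in Pax3+Zic1 caps (mean -0.10). In limma the difference between the 2 changes was -1.12 ± 0.98 and did not pass (adjusted p = 1, blocked adjusted p = 1). Groups of 3 samples were not screened for outlying samples.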

How the results depend on the processing

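The 20 changes of members called with or without the block kept their direction under each alternative. Of the 100 others, none called, 46 turned at least once, of size up to 0.61, among them 14 of the 32 against control caps. With the replicate block the members called were 1 instead of 0 in Pax3 caps, 3 instead of 0 in Pax3+Zic1 caps, 5 instead of 1 in Pax3 caps with cycloheximide and 7 instead of 4 in Pax3+Zic1 caps with cycloheximide, each against control caps, and 4 instead of 0 for the drug in Pax3+Zic1 caps. The block changed no other count, and the other comparisons stayed at 0 under each alternative run without it. Leaving out the dimmest 25% of probe sets, or weighting the arrays, each gave 1 in Pax3+Zic1 caps against control caps (dlx3.L c), and 12 of 12 members were kept by that filter. Fitting only the compared groups, with fewer samples, gave 1 in Pax3+Zic1 caps with cycloheximide. Leaving out 1 sample gave 0 to 1 in Pax3+Zic1 caps and 1 to 4 in Pax3+Zic1 caps with cycloheximide (1 without control replicate 2 or 3), and moved no other count. Leaving out 1 sample within the blocked fit, a combination chosen after seeing the data, gave 0 to 3 members in Pax3 caps, 0 to 6 in Pax3+Zic1 caps, 4 to 5 and 5 to 7 with cycloheximide, 0 to 4 for the drug in Pax3+Zic1 caps, 0 to 2 for the drug in Pax3 caps and 0 to 3 for added Zic1 on average. Counting gbx2.1.S and gbx2.2.L as members, also chosen after seeing the data, changed no count without the block. The cause of these changes was not tested. The SEs of the dlx2 changes were 0.53 and 0.70 without the block and 0.25 and 0.33 with it. Signal over background is not known here for any probe set. The values of gbx2.1.S and gbx2.2.L lie low on the array. In Pax3+Zic1 caps with cycloheximide the mean of dlx3.L c was 4.4, above 43.7% of all probe sets. That of dlx2.L was 4.31, above 42.6%.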
